A study of Mus musculus with 5 samples.

Results

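The 44 genes that encode collagen chains were followed in erythroid cells of the mouse. They were chosen by symbol alone, as every gene called Col, a type number, the letter a and a chain number, among the 39179 genes measured, and 38 of the 44 reached 1 read per 1000000 reads (CPM) in at least 1 library. In all, 5 RNA-seq libraries were available, made from polyA RNA of cells that had been captured with magnetic beads against CD71, the transferrin receptor that erythroid precursors carry. UVB 1 and 2 came from the spleens of C57BL/6 mice whose skin had been irradiated with UVB at 50 mJ/cm2. Tumor 1 and 2 were made from spleens of mice carrying B16 cells, a mouse melanoma line, placed under the skin, and their strain is written as C57BL/7 for tumor 1 and C57BL/8 for tumor 2, where a slip in the labels for C57BL/6 is possible. The control was 1 library from the bone marrow of untreated C57BL/6 mice. The labels name no transgene or deleted allele in any group, and no age or sex is given there. No spleen library from untreated mice was analysed here, so organ and treatment cannot be told apart in a comparison with the control.

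Collagens are matrix proteins whose chains wind around each other into a rope-like helix. Fibrillar collagens, with type I as the main one of bone, skin and tendon, pack into banded fibrils. Other classes sit on the fibril surface (the fibril-associated collagens, or FACITs), form the sheet of basement membranes (type IV), build beaded filaments (type VI) or lie in the cell membrane. Fibroblasts, osteoblasts, cartilage cells, endothelial cells and stromal cells of the marrow and spleen are the usual makers of collagen, and red cell precursors are not known for it.

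Reads in genes per library numbered 5003923 to 5921270, and 1 read was worth 0.168 to 0.198 CPM. A printed value at that level stands for 0 reads, because the authors had added 1 read to every gene. Over a list of 13 erythroid markers, the summed level was 4759 and 4460 CPM in UVB 1 and 2, 4590 and 4154 CPM in tumor 1 and 2 and 4170 CPM in the control. Such sums do not measure the share of erythroid cells, and a list of 12 macrophage markers summed to 1523 to 3848 CPM. None of the 13 erythroid markers, which include the anion exchanger Slc4a1 of the red cell membrane, was called in any comparison. The tumor libraries lay further apart from each other (1703 genes over 2-fold apart) than the UVB libraries (278 genes). These are bulk libraries, so fewer cells of a type and less RNA per cell cannot be told apart in any value below.

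The DNA before the start sites of 4 chains is shown because their levels carry the contrasts described below. Col11a1 and Col11a2 are chains of the same type XI collagen, of which Col11a1 had at most 1 read in a spleen library. Col28a1 had its highest levels in the tumor libraries, and Col4a2 has its start beside that of Col4a1. The sequences are from RefSeq on GRCm38.p6, 5′ to 3′ on the strand of the gene, and are the 250 bases before the start site, except for Col4a2. Capitals mark matches to the TATA box (TATAAA), the CCAAT box (CCAAT), the GC box (GGGCGG) and the GATA motif (AGATAA), or to their reverse complements. Those windows lie at chr3:114030290-114030539 (+ strand) for Col11a1, chr17:34038888-34039137 (+ strand) for Col11a2 and chr6:8192618-8192867 (− strand) for Col28a1.
Col11a1: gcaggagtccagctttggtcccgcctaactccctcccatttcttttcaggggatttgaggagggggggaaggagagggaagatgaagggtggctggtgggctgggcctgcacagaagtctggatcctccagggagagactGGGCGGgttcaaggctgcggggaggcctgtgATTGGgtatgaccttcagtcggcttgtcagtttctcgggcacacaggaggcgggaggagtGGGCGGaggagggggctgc
Col11a2: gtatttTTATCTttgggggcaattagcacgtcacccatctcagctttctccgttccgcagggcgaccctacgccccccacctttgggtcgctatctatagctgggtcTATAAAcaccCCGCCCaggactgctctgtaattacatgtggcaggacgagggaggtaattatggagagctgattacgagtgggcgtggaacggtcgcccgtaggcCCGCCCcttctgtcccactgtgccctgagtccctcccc
Col28a1: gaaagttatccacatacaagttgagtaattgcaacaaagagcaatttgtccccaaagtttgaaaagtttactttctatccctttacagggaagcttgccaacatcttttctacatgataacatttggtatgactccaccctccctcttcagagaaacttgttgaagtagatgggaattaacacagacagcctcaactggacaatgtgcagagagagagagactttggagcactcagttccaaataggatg
Col4a2: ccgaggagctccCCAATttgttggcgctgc
The Col4a2 stretch lies at chr8:11312761-11312790 (+ strand), and its CCAAT box begins 32 bases before the Col4a2 start. Col4a1 and Col4a2 stand head to head on chromosome 8, with their RefSeq starts at 11312826 on the − strand and 11312805 on the + strand, so the printed stretch also lies within the first exon of Col4a1. Col11a1 held a CCAAT box in reverse 79 bases before its start and GC boxes at 110 and 19 bases. Col11a2 held a TATA box at 143 bases, GC boxes in reverse at 133 and 38 bases and a GATA motif in reverse at 244 bases. None of these letters was found in the Col28a1 window. Over 32817 RefSeq windows of the same 250 bases, a match on either strand was present in 12.4% for the TATA box, 33.8% for the CCAAT box, 32.7% for the GC box and 9.99% for the GATA motif. Among 38 windows of 35 collagen chains, the share was 13.2% for the TATA box, 34.2% for the CCAAT box, 57.9% for the GC box and 5.26% for the GATA motif. A match is only a run of letters, and nothing about binding was measured.

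Collagen chain messages made up a larger share of the control library than of any spleen library, and different chains made up that share. The summed level of the 44 chains was 482.6 and 439.9 CPM in UVB 1 and 2, 337.8 and 289.6 CPM in tumor 1 and 2 and 1287 CPM in the control. In reads, these sums were 2390 and 2578 in the UVB libraries, 1860 and 1557 in the tumor libraries and 7335 in the control. The number of chains that reached 1 CPM was 15 and 19 in UVB 1 and 2, 14 and 19 in tumor 1 and 2 and 33 in the control. Chains with 0 reads numbered 19 and 17 in the UVB libraries, 18 and 9 in the tumor libraries and 1 in the control.

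**Figure D1:**
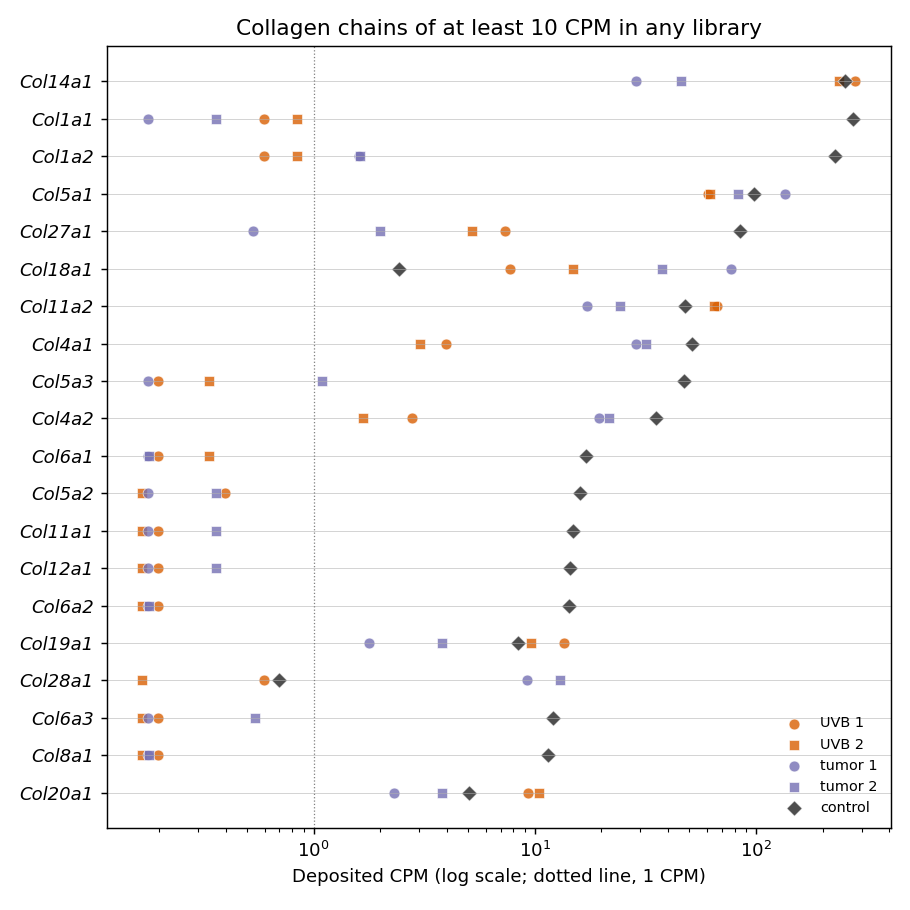
Deposited CPM on a log scale (x axis) of the 20 collagen chains that reached 10 CPM in any library (y axis), with 1 point per library and a dotted line at 1 CPM. The control point stands far to the right of all spleen points for Col1a1, Col1a2, Col5a2, Col5a3, Col8a1, Col11a1, Col12a1 and the 3 Col6 chains, and to the left of the tumor points for Col18a1 and Col28a1.

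Per base of exon, Col14a1 was the leading chain of both UVB libraries, Col5a1 of both tumor libraries and Col1a1 of the control. Col14a1, a FACIT that binds to fibril surfaces, had 40.2 and 34.0 reads per kilobase of exon per 1000000 reads (RPKM) in UVB 1 and 2 and held 59.0% and 54.7% of all chain reads there. Col5a1, the chain present in most type V collagen, had 16.1 and 9.78 RPKM in tumor 1 and 2, with 41.1% and 29.3% of chain reads. In the control, Col1a1 had 42.2 RPKM with 21.5% of chain reads, Col14a1 36.3 RPKM with 19.7%, and Col1a2 18.4 RPKM with 17.8%. Col14a1 ranked 3 in tumor 1 and 2 in tumor 2, so it was among the leading 3 chains of every library, while a different chain led each of the 3 groups.

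**Figure D2:**
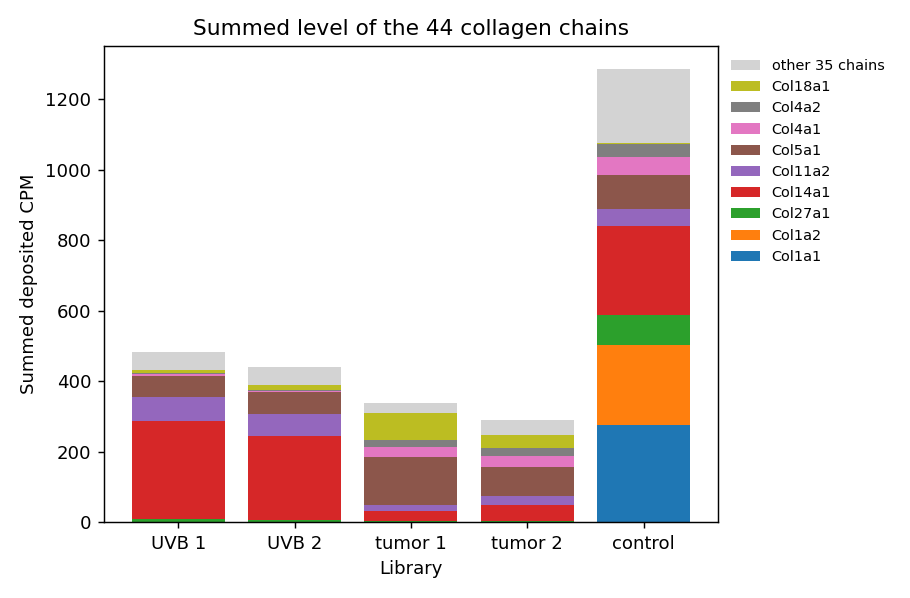
Summed deposited CPM of the 44 chains (y axis) in each library (x axis), as stacked bars of 9 named chains and the other 35 together. The bars reach 482.6 and 439.9 CPM in the UVB libraries, 337.8 and 289.6 CPM in the tumor libraries and 1287 CPM in the control, with Col14a1 as the largest segment in UVB, Col5a1 in tumor and Col1a1 in control.

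By class, the 11 fibrillar chains summed to 137.6 and 136.4 CPM in UVB 1 and 2, 156.6 and 113.4 CPM in tumor 1 and 2 and 826.8 CPM in the control. The 9 FACIT chains summed to 309 and 264 CPM in the UVB libraries, 35.7 and 56.1 CPM in the tumor libraries and 292 CPM in the control. The 6 type IV chains summed to 9.32 and 8.72 CPM in the UVB libraries, 50.6 and 56.1 CPM in the tumor libraries and 90.9 CPM in the control. The UVB libraries were thus low in summed basement membrane chains and the tumor libraries in summed FACIT chains. The FACIT sum is mostly 1 chain, since Col14a1 held 83.3% to 90.9% of FACIT reads in each library. Multiplexins (Col15a1 and Col18a1) had their highest sums in the tumor libraries, 77.3 and 39.2 CPM, against 9.72 and 17.4 CPM in the UVB libraries and 5.93 CPM in the control. Col18a1 held 99.5% and 96.3% of the multiplexin reads in tumor 1 and 2.

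Each comparison was fitted across the 15006 genes whose mean reached 1 CPM, with limma on log2(CPM + 1) and Benjamini-Hochberg adjustment, and a gene is said to be called when its adjusted p is under 0.05. Of the 44 chains, 29 passed that filter and 15 did not. Among the 29 were 12 chains that passed only through the control library (Col1a1, Col2a1, Col3a1, Col5a2, Col5a3, Col6a1, Col6a2, Col6a3, Col8a1, Col11a1, Col12a1 and Col16a1) and so had to differ from it, and neither their calls nor a median that includes them supports a direction against the control. The other 17 had a spleen mean of at least 1 CPM. Col1a2 among them did so only narrowly, at 1.16 CPM with the added read included, so its calls against the control carry nearly the same limit. Col28a1, also among the 17, was under 1 CPM in both UVB libraries and in the control. It passed the filter only through the tumor libraries and so had to be higher there, and its calls support no direction. Whether the libraries of a group were made from separate animals is not stated in the labels, so the p-values reflect the spread of these samples alone, and that spread may be technical. The control has no spread of its own, and both comparisons with it share that library. The log2 changes refer to log2(CPM + 1) and so understate the changes of low genes, and intervals on reads hold counting error alone.

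In the UVB libraries against the control, 14 of the 29 tested chains were called and all 14 were lower. Across all tested genes 2.33% were called, 0.180% higher and 2.15% lower. Outside the chains that passed only through the control, the calls were Col1a2, Col4a1 and Col4a2, of 17. The median log2 change was 0.03 over these 17 chains and -2.26 over all 29, which the filter pulls down, beside -0.06 over all tested genes. Called chains numbered 4 with edgeR's quasi-likelihood test on the recovered reads (Col1a1, Col1a2, Col4a1 and Col4a2), with 0.773% of all genes called, and 12 with DESeq2, with 2.94%. Without UVB 1 or without UVB 2 limma called 0 chains, with 17 chains at unadjusted p under 0.05 in both cases. Of all called genes 92.3% were lower, and 66.7% with DESeq2.

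In the tumor libraries against the control, 17 chains were called, 2 of them higher (Col18a1 and Col28a1) and 15 lower. The background was 3.79% of all tested genes, 1.20% higher and 2.59% lower. Beyond the 12 chains that passed only through the control, the called chains were Col1a2, Col14a1 and Col27a1, which were lower, and the 2 higher ones. Of these 2, Col28a1 passed only through the tumor libraries and so had to be higher. The median log2 change was -0.70 over the other 17 chains and -2.03 over all 29, which the filter pulls down, beside -0.01 over all genes. With edgeR 5 chains were called, Col1a1, Col1a2, Col5a2, Col14a1 and Col27a1, with 1.28% of all genes, and with DESeq2 12 chains, with 4.65%. Without UVB 1 or without UVB 2 limma called 0 chains, with 18 at unadjusted p under 0.05 in both cases, and it called 0 with the 2 groups fitted alone (19 at unadjusted p under 0.05).

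The UVB and tumor libraries share the organ, and 10 chains were called between them, all among the 17. In the UVB libraries 6 chains were higher (Col14a1, Col11a2, Col19a1, Col20a1, Col23a1 and Col9a3) and 4 were lower (Col4a1, Col4a2, Col18a1 and Col28a1). Of the lower ones, Col28a1 passed the filter only through the tumor libraries and so had to be lower in UVB libraries. Of all tested genes 17.0% were called, 4.70% higher and 12.3% lower. The median log2 change was 0.69 over the 17 chains and 0.10 over all 29, beside -0.01 over all genes. The 29 include the chains near 0 reads in both spleen groups, which pull their median towards 0. With edgeR 10 chains and 13.4% of all genes were called, and with DESeq2 8 chains and 16.8%. Of all called genes 72.4% were lower in UVB libraries with limma and 45.0% with DESeq2. Without the filter on low genes limma called 5 chains (Col4a1, Col4a2, Col11a2, Col14a1 and Col28a1), and Col9a3, Col18a1, Col19a1, Col20a1 and Col23a1 lost their calls. Limma called 0 chains without UVB 1 (9 at unadjusted p under 0.05) and 0 without UVB 2 (12 at unadjusted p under 0.05).

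**Figure D3:**
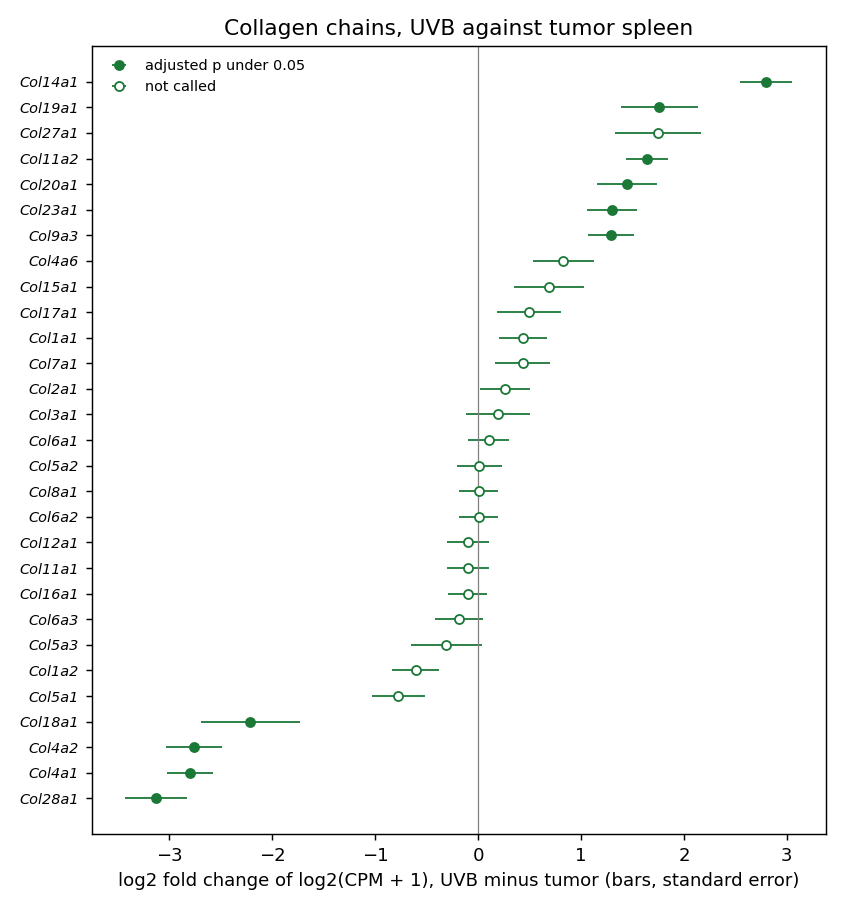
Difference between UVB and tumor libraries for each tested chain, on the log2(CPM + 1) scale, with bars of 1 standard error from the limma fit, filled points for called chains and open points for the others. Col14a1 at 2.80 stands at the UVB end, Col28a1 at -3.13 and Col4a1 and Col4a2 at about -2.8 at the tumor end, and the open points of the 3 Col6 chains lie near 0.

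The type I chains were far higher in the control library than in any spleen library. Col1a1, which with Col1a2 makes type I collagen, lies at 11:94936224-94953042 on the + strand of GRCm38 and had 0.59 and 0.84 CPM in UVB 1 and 2, 0.18 and 0.36 CPM in tumor 1 and 2 and 275.2 CPM in the control. In reads that was 6 over both UVB libraries, 1 over both tumor libraries and 1577 in the control. The control was thus far above all 4 spleen libraries, by 504 times against the UVB reads (95% counting interval 231 to 1376). The log2 change was -7.33 ± 0.29 (SE, adjusted p = 0.0189, limma) in the UVB libraries and -7.77 ± 0.29 (adjusted p = 0.0171) in the tumor libraries. Col1a1 passed the filter only through the control and so had to be lower in the spleens, and these tests add no support.

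Col1a2, at 6:4504814-4541544, had 0.59 and 0.84 CPM in the UVB libraries, 1.60 and 1.63 CPM in the tumor libraries and 227.3 CPM in the control. Its spleen mean of 1.16 CPM, the added read included, put it only just past the filter. Its calls against the control therefore carry nearly the same limit as those of Col1a1. The log2 change was -7.06 ± 0.28 (adjusted p = 0.0189, limma) for UVB and -6.45 ± 0.28 (adjusted p = 0.0171) for tumor. The difference between UVB and tumor libraries was -0.61 (adjusted p = 0.120) on 6 against 16 reads. Per base of exon the control held 2.29 times as much Col1a1 as Col1a2 (interval 2.13 to 2.47), and the spleens had few reads, 0 to 4 of Col1a1 and 2 to 8 of Col1a2 per library. The intervals of the ratio reached up to 1.11 in tumor 1 (0 against 8 reads) and 1.77 in tumor 2 (1 against 8), below that of the control, and in UVB 1 and 2 they were too wide to place it.

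Besides Col1a1, 11 chains passed the filter only through the control, and they belong to the fibrillar, beaded filament, network and FACIT classes. Their log2 changes, given as a description, ran from -5.26 (Col5a3) to -2.13 (Col16a1) in the UVB libraries and from -4.95 (Col5a3) to -2.03 (Col16a1) in the tumor libraries. Col5a3, a minor type V chain, had 0.20 and 0.34 CPM in the UVB libraries, 0.18 and 1.09 CPM in the tumor libraries and 47.4 CPM in the control. Col5a2, which joins Col5a1 in type V collagen, had 0.40 and 0.17 CPM in the UVB libraries, 0.18 and 0.36 CPM in the tumor libraries and 16.05 CPM in the control. Col11a1, a type XI chain of cartilage, had 0.20 and 0.17 CPM in the UVB libraries, 0.18 and 0.36 CPM in the tumor libraries and 14.8 CPM in the control. These 3 chains were at 0 to 5 reads in every spleen library. Col3a1, the type III chain of reticular fibres, had 0.20 and 1.01 CPM in the UVB libraries, 0.35 and 0.36 CPM in the tumor libraries and 8.37 CPM in the control. It was called in the tumor comparison (-2.79, adjusted p = 0.0420 with limma), and in the UVB comparison its change of -2.60 had an adjusted p of 0.0616.

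Type VI collagen forms beaded filaments around cells, and its 3 main chains were seen together in the control. Col6a1 had 0.20 and 0.34 CPM in the UVB libraries, 0.18 CPM in each tumor library and 17.1 CPM in the control. Col6a2 had 0.20 and 0.17 CPM in the UVB libraries, 0.18 CPM in each tumor library and 14.3 CPM in the control, which is at least 51.8 times and 52.6 times lower in the UVB and tumor groups with 3 reads over the group taken as the floor. Col6a3 had 0.20 and 0.17 CPM in the UVB libraries, 0.18 and 0.54 CPM in the tumor libraries and 12.0 CPM in the control. All 3 had 0 to 2 reads in each spleen library, which is at the limit of detection at this depth. Per base of exon, Col6a1 was 2.28 times Col6a2 in the control (97 and 81 reads, interval 1.68 to 3.10).

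Col8a1, a network-forming chain found under endothelium, had 0 reads in all 4 spleen libraries and 11.5 CPM in the control, so it was at least 41.6 times lower in the UVB group and 42.2 times lower in the tumor group. Col12a1, a FACIT related to Col14a1, had 0.20 and 0.17 CPM in the UVB libraries, 0.18 and 0.36 CPM in the tumor libraries and 14.5 CPM in the control. Col12a1 and Col14a1 thus differed: Col12a1 was near 0 in the spleens, and Col14a1 was among the most abundant chains there. Col2a1, the type II chain of cartilage, had 0.20 and 0.67 CPM in the UVB libraries, 0.18 CPM in each tumor library and 5.76 CPM in the control. Col16a1, a FACIT, had 0.20 and 0.34 CPM in the UVB libraries, 0.35 and 0.36 CPM in the tumor libraries and 4.53 CPM in the control.

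Col27a1, a fibrillar chain known from cartilage, at 4:63214004-63334991, kept reads in the spleens. It had 7.34 and 5.20 CPM in UVB 1 and 2, 0.53 and 1.99 CPM in tumor 1 and 2 and 84.6 CPM in the control. All spleen libraries were below the control, and both UVB libraries were above both tumor libraries. It was lower in the tumor libraries by -5.32 ± 0.51 (SE, adjusted p = 0.0257, limma). The UVB change of -3.57 ± 0.51 missed the threshold (adjusted p = 0.0560), as did the difference between UVB and tumor libraries of 1.75 ± 0.42 (adjusted p = 0.0547). DESeq2 called both (adjusted p = 1.08e-05 and 0.00475).

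Partner chains of the same collagen did not go together in the spleens for types V and XI. Col5a1, at 2:27886425-28039514 on the + strand, had 60.9 and 62.2 CPM in the UVB libraries, 135.9 and 82.7 CPM in the tumor libraries and 98.4 CPM in the control. It was called in no comparison (log2 change -0.67, adjusted p = 0.416 for UVB against control, 0.11, adjusted p = 0.866 for tumor against control, -0.77, adjusted p = 0.0958 for UVB against tumor, limma), and tumor 1 was the highest library. Its partner Col5a2 had 1 and 0 reads in UVB 1 and 2, 0 and 1 in tumor 1 and 2 and 91 in the control. Per base of exon, Col5a1 exceeded Col5a2 by at least 139 times in UVB 2 and 288 times in tumor 1, the libraries with 0 reads of Col5a2, and by 6.99 times in the control (interval 5.59 to 8.82). Col5a3 gave 271 reads in the control and 0 to 5 in the spleens, so Col5a1 was 1.67 times Col5a3 in the control (interval 1.44 to 1.93). In UVB 1, with 0 reads of Col5a3, the same floor gave 81.8 times (interval from 66.1 upward).

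Col11a2, at 17:34039437-34066685 on the + strand, had 66.8 and 64.8 CPM in the UVB libraries, 17.2 and 24.2 CPM in the tumor libraries and 47.6 CPM in the control. Both UVB libraries were above the control and both tumor libraries below it, but only the difference between the spleens was called, at 1.64 ± 0.20 (SE, adjusted p = 0.0230, limma). In reads the UVB libraries held 3.20 times the tumor level (721 against 229 reads, interval 2.75 to 3.72). Col11a1, whose promoter is printed above beside that of Col11a2, gave 0 reads in UVB 1, UVB 2 and tumor 1, 1 read in tumor 2 and 84 in the control. With 3 reads as the floor, Col11a2 was 208 and 238 times Col11a1 per base of exon in UVB 1 and 2 (intervals from 168 and 193 upward). In the control it was 6.00 times Col11a1 (interval 4.68 to 7.76). The pair Col5a1 and Col11a2 differed in balance between the spleens, at 0.737 and 0.778 in UVB 1 and 2, 6.45 and 2.78 in tumor 1 and 2 and 1.68 in the control per base of exon.

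**Figure D4:**
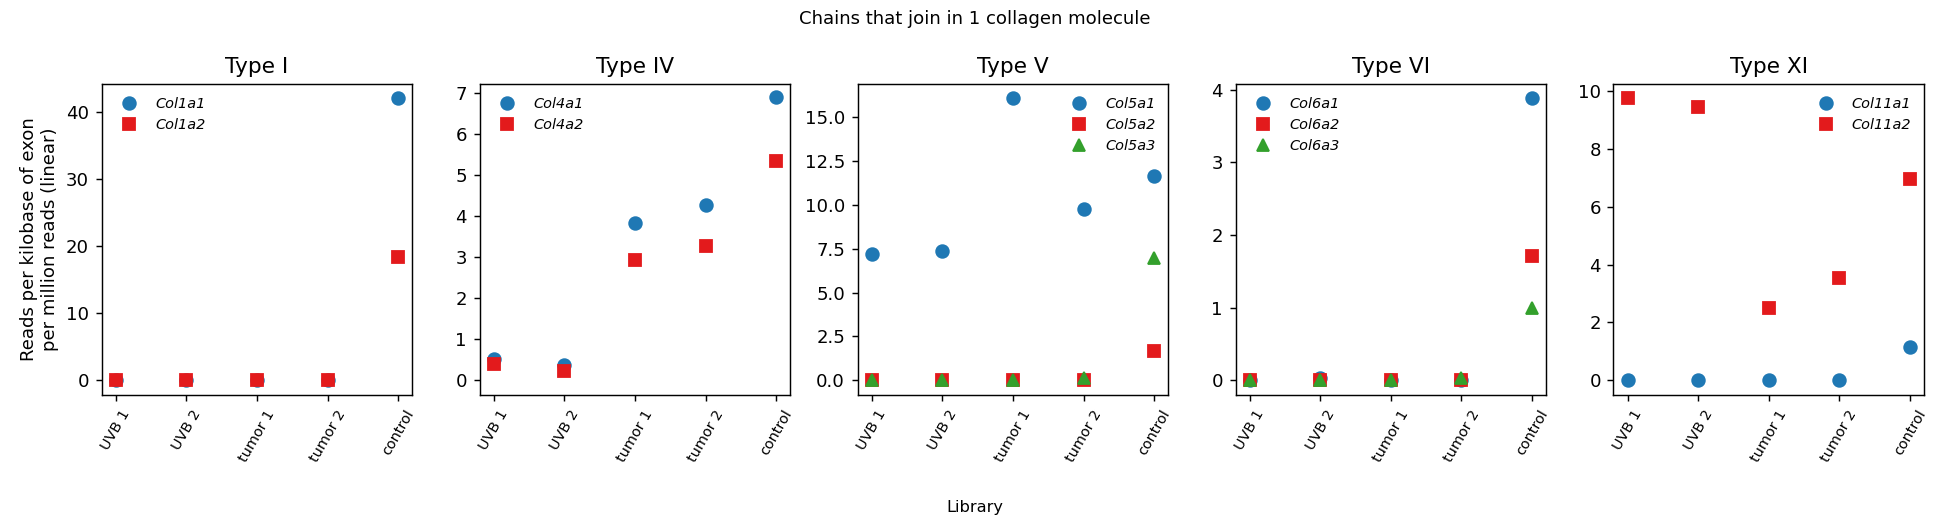
Reads per kilobase of exon and 1000000 reads on a linear scale (y axis) in each library (x axis), in 1 panel per collagen type, with 1 symbol per chain and no error bars, since each point is 1 library. Col4a1 and Col4a2 change together over the libraries, whereas Col5a1 and Col11a2 are present in every library and Col5a2, Col5a3 and Col11a1 stand clear of 0 in the control alone.

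The 4 FACIT chains with a spleen mean of at least 1 CPM were each higher in the UVB than in the tumor libraries. Col14a1, at 15:55307750-55520803 on the + strand, had 279.8 and 236.7 CPM in UVB 1 and 2, 28.6 and 45.6 CPM in tumor 1 and 2 and 252.7 CPM in the control. The UVB libraries lay on both sides of the control, and the tumor libraries lay below both. Its level averaged 258 ± 30.4 CPM in UVB libraries and 37.1 ± 12.0 CPM in tumor libraries (SD, n = 2 each). The log2 change was 0.03 ± 0.31 (SE, adjusted p = 0.978) for UVB against control, -2.77 ± 0.31 (adjusted p = 0.0307) for tumor against control and 2.80 ± 0.25 (adjusted p = 0.0200) for UVB against tumor, with limma. In reads the UVB level was 6.96 times the tumor level (interval 6.28 to 7.74).

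Col19a1, a FACIT found in basement membrane zones, had 13.5 and 9.56 CPM in the UVB libraries, 1.77 and 3.80 CPM in the tumor libraries and 8.37 CPM in the control. Col20a1, a FACIT of unsettled function, had 9.32 and 10.4 CPM in the UVB libraries, 2.31 and 3.80 CPM in the tumor libraries and 5.06 CPM in the control. Col9a3, a chain of the cartilage FACIT type IX, had 5.55 and 5.20 CPM in the UVB libraries, 1.77 and 1.45 CPM in the tumor libraries and 2.79 CPM in the control. In each of the 3 both UVB libraries were above the control and both tumor libraries below it. The UVB and tumor libraries differed by 1.76 ± 0.38 for Col19a1 (SE, adjusted p = 0.0467), 1.45 ± 0.29 for Col20a1 (adjusted p = 0.0415) and 1.29 ± 0.22 for Col9a3 (adjusted p = 0.0337), with limma. None of the 3 was called against the control, and between the spleens DESeq2 called Col19a1 alone of them (adjusted p = 0.0297, against 0.0727 for Col20a1 and 0.155 for Col9a3). The Col9a3 partners Col9a1 and Col9a2 reached 1 CPM in no library.

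Col23a1, a transmembrane collagen, followed the same order with 4.76 and 4.70 CPM in the UVB libraries, 1.06 and 1.63 CPM in the tumor libraries and 2.79 CPM in the control, and differed between UVB and tumor by 1.30 ± 0.24 (SE, adjusted p = 0.0370, limma), which DESeq2 did not call (adjusted p = 0.164). Reads behind these lower chains were few, 50 over both UVB libraries against 13 over both tumor libraries for Col23a1 and 57 against 16 for Col9a3.

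Type IV chains form the network of basement membranes, and the main pair was low in the UVB libraries alone. Col4a1, at 8:11198423-11312826 on the − strand, had 3.97 and 3.02 CPM in UVB 1 and 2, 28.6 and 31.8 CPM in tumor 1 and 2 and 51.3 CPM in the control. Col4a2, at 8:11312805-11449287 on the + strand, had 2.78 and 1.68 CPM in the UVB libraries, 19.5 and 21.7 CPM in the tumor libraries and 35.2 CPM in the control. For both chains the UVB libraries were lowest, the tumor libraries intermediate and the control highest, with no overlap. Col4a1 was lower in UVB libraries by -3.55 ± 0.27 against the control (SE, adjusted p = 0.0199) and by -2.80 ± 0.22 against tumor libraries (adjusted p = 0.0200), and Col4a2 by -3.51 ± 0.33 (adjusted p = 0.0281) and -2.76 ± 0.27 (adjusted p = 0.0204), with limma. The tumor changes of -0.75 in both chains missed the threshold, with adjusted p = 0.194 for Col4a1 and 0.256 for Col4a2.

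The balance of the pair was nearly the same where its level was not. Per base of exon, Col4a1 over Col4a2 was 1.30 and 1.68 in UVB 1 and 2, 1.30 in both tumor libraries and 1.29 in the control. Intervals were widest in the UVB libraries (0.607 to 2.86 and 0.706 to 4.26), where the chains had 9 to 19 reads, and narrowest in the control (1.08 to 1.55). The genes share 22 bases of exon on opposite strands, between their starts and beside the stretch printed above. The other type IV chains were low: Col4a3, Col4a5 and Col4a6 ranged over 0.355 to 2.35 CPM, and Col4a4 did not reach 1 CPM in any library.

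Col18a1 and Col28a1 were the only called chains that were higher in the tumor libraries than in both other groups. Col18a1, a multiplexin whose end fragment is endostatin, lies at 10:77052178-77166548 on the − strand and had 7.73 and 14.9 CPM in UVB 1 and 2, 76.8 and 37.6 CPM in tumor 1 and 2 and 2.44 CPM in the control. Both tumor libraries were above both UVB libraries, which were above the control, although tumor 1 was far above tumor 2. It averaged 57.2 ± 27.7 CPM in tumor libraries (SD, n = 2) and 2.44 CPM in the 1 control library, a log2 change of 3.99 ± 0.59 (SE, adjusted p = 0.0473, limma), and in reads 25.2 times the control level (639 against 13 reads, interval 14.7 to 47.7). UVB libraries were -2.22 ± 0.48 from tumor libraries (adjusted p = 0.0478), and their difference from the control of 1.78 ± 0.59 was not called (adjusted p = 0.279). Col18a1 has 2 start sites in RefSeq, and counts per gene do not separate them. Its relative Col15a1 ranged over 0.532 to 3.49 CPM, highest in the control.

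Col28a1, a collagen with von Willebrand factor A domains that is known from peripheral nerve, lies at 6:7997808-8192617 on the − strand and had 0.59 and 0.17 CPM in the UVB libraries, 9.22 and 13.0 CPM in the tumor libraries and 0.70 CPM in the control. Both tumor libraries stood above the other 3, which were all under 1 CPM. Col28a1 thus passed the filter only through the tumor libraries and had to be higher there. Its log2 changes are given as a description. They were 2.82 ± 0.37 (SE, adjusted p = 0.0374, limma) for tumor against control and -3.13 ± 0.30 (adjusted p = 0.0200) for UVB against tumor. The reads were 2 over both UVB libraries, 122 over both tumor libraries and 3 in the control, so the tumor level was 20.9 times the control level with a wide interval (6.98 to 103). Against the control edgeR called neither Col18a1 nor Col28a1, and DESeq2 called both.

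The 25 chains above include every chain that reached 10 CPM or was called. The other 13 chains that reached 1 CPM reached at most 5.41 CPM. Col7a1, the anchoring fibril chain of skin, was the highest of them, at 5.35 and 3.69 CPM in the UVB libraries, 2.84 and 3.26 CPM in the tumor libraries and 5.41 CPM in the control, with no call. Col10a1, a network chain of growth cartilage, ranged over 0.595 to 1.40 CPM. Col17a1, a transmembrane chain of hemidesmosomes, ranged over 0.523 to 2.58 CPM and was highest in UVB 1. Col13a1, Col22a1, Col24a1 and Col25a1 were highest in the control, at 1.40 to 3.49 CPM, and Col6a4 and Col6a5 reached 1.45 CPM in tumor 2 and 1.17 CPM in UVB 2. The 6 chains that did not reach 1 CPM were Col8a2, Col9a1, Col9a2, Col26a1, Col4a4 and Col6a6, with 0.839 CPM as the highest value among them (Col9a2, UVB 2). Some exons overlap other genes, and it is not known whether counting used strand: Col5a1 shares 113 bases with Gm13372, Col9a3 234 bases with Tcfl5 and Col20a1 79 bases with BX649560.1.

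Genes that modify, fold, process and bind collagen were read from lists beside the chains, and those near 0 in all spleen libraries passed the filter only through the control, as the chains above did. The counts of each list below are to be set beside the shares over all genes in the same direction. For UVB against control 0.180% were called higher and 2.15% lower (2.33% in all). For tumor against control these were 1.20% and 2.59% (3.79% in all), and for UVB against tumor 4.70% and 12.3% (17.0% in all). Of 13 tested modifying enzymes none was called against the control, and 2 were higher in UVB than in tumor libraries, beside 4.70% called higher over all genes. Plod1, a lysyl hydroxylase, had 109.5 and 103.7 CPM in the UVB libraries, 27.0 and 46.5 CPM in the tumor libraries and 80.9 CPM in the control (UVB against tumor 1.56, adjusted p = 0.0349, limma). P4ha1, a prolyl hydroxylase subunit, had 109.9 and 96.6 CPM in the UVB libraries, 39.4 and 51.4 CPM in the tumor libraries and 75.2 CPM in the control (1.18, adjusted p = 0.0285). Among 8 tested folding and secretion genes the called one was Serpinh1, the collagen chaperone HSP47, with 1.19 and 1.01 CPM in the UVB libraries, 4.08 and 3.98 CPM in the tumor libraries and 24.8 CPM in the control, lower in both spleen groups (-3.62, adjusted p = 0.0199 and -2.36, adjusted p = 0.0328) and lower in UVB than in tumor libraries (-1.26, adjusted p = 0.0346). Ctage5, which acts in export of large cargo, had 140.6 to 184.7 CPM over the 5 libraries with no call.

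Of 8 tested genes for procollagen processing and crosslinking, 3 were lower in each spleen group than in the control, all of them through the control alone. Lox, the lysyl oxidase, had 0.20 and 0.50 CPM in the UVB libraries, 0.18 and 0.54 CPM in the tumor libraries and 10.3 CPM in the control. Adamts2, the procollagen N-proteinase, had 0.59 and 0.84 CPM in the UVB libraries, 0.53 and 0.36 CPM in the tumor libraries and 10.99 CPM in the control. Between the spleens 2 were higher and 2 lower in UVB libraries. Pcolce2, an enhancer of C-propeptide removal, had 91.4 and 89.3 CPM in the UVB libraries, 14.0 and 28.0 CPM in the tumor libraries and 9.77 CPM in the control (UVB against tumor 2.13, adjusted p = 0.0317, limma). Adamts3, a related N-proteinase, went the other way with 4.96 and 3.19 CPM in the UVB libraries, 20.4 and 36.2 CPM in the tumor libraries and 8.89 CPM in the control (-2.50, adjusted p = 0.0292).

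Among 8 tested receptors 1 was lower in each spleen group than in the control, and 2 were higher in UVB than in tumor libraries. Ddr2, a receptor tyrosine kinase for fibrillar collagen, was the one lower in both spleen groups, with 0.20 and 0.34 CPM in UVB, 0.18 and 0.54 CPM in tumor and 6.80 CPM in control. It passed the filter only through the control and so had to be lower. Lair1, an inhibitory collagen receptor of leukocytes, had 141.4 and 142.1 CPM in the UVB libraries, 40.8 and 72.7 CPM in the tumor libraries and 53.2 CPM in the control, and was higher in UVB than in tumor libraries, as was the integrin chain Itga1 (13.1 and 17.3 CPM in UVB, 4.08 and 6.15 CPM in tumor and 7.32 CPM in control).

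Among 9 tested degradation genes 2 were lower in each spleen group than in the control, and between the spleens 3 were higher and 1 was lower in UVB libraries. Mmp14, a membrane protease that cleaves fibrillar collagen, was, like Col4a1, lowest in the UVB libraries, with 13.7 and 12.2 CPM in the UVB libraries, 63.5 and 64.7 CPM in the tumor libraries and 40.8 CPM in the control. It was lower in UVB libraries than in the control (-1.58, adjusted p = 0.0356, limma) and than in tumor libraries (-2.22, adjusted p = 0.0200). Ctsk, the collagenase of osteoclasts, had 1.59 and 1.01 CPM in the UVB libraries, 1.06 and 1.09 CPM in the tumor libraries and 20.6 CPM in the control, and was lower in both spleen groups. With 5 to 7 reads per spleen library it passed the filter only narrowly without the control. Its calls against the control therefore carry nearly the same limit as those of Col1a2. Mmp13, a collagenase, had 10.3 and 7.89 CPM in the UVB libraries, 2.13 and 3.26 CPM in the tumor libraries and 32.4 CPM in the control, lower in tumor libraries than in the other 2 groups. Timp2, a metalloproteinase inhibitor, had 181.4 and 158.9 CPM in the UVB libraries, 44.0 and 77.6 CPM in the tumor libraries and 138.8 CPM in the control, higher in UVB than in tumor libraries.

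Of 13 tested matrix partners, 6 were lower in UVB and 5 in tumor libraries than in the control, and none was higher. In each comparison 5 of these passed the filter only through the control, Tnc, Bgn, Fbn1 and Dcn among them. The other call was Sparc in UVB libraries. Sparc was also the 1 gene of the list called between the spleens, lower in UVB than in tumor libraries. Tnc, the matrix glycoprotein tenascin C, had 0 reads in all 4 spleen libraries and 72.4 CPM in the control. Bgn, a small proteoglycan, had 0.59 and 0.67 CPM in the UVB libraries, 0.89 and 0.36 CPM in the tumor libraries and 41.2 CPM in the control. Fbn1, of microfibrils, was at 22.7 CPM and Dcn, which binds type I fibrils, at 5.93 CPM in the control, and both were under 1 CPM in every spleen library. Of 10 tested basement membrane partners, 3 were lower in UVB and 2 in tumor libraries than in the control, 2 and 1 of them through the control alone. Lama5, a laminin chain, was lower in UVB than in tumor libraries with 0.79 and 1.68 CPM in UVB, 38.1 and 11.03 CPM in tumor and 7.85 CPM in control (-3.31, adjusted p = 0.0396, limma). Nid2, which links laminin to type IV collagen, was higher in UVB than in tumor libraries with 65.2 and 48.2 CPM in UVB, 11.7 and 21.3 CPM in tumor and 32.6 CPM in control (1.76, adjusted p = 0.0392). Lamb1 and Lamb2, laminin chains, were at 8.55 and 11.2 CPM in the control and at most 1.60 CPM in any spleen library. Lamb2 thus passed the filter only narrowly without the control, and its calls carry nearly the same limit.

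The levels of several marker lists of other cell types differed between the libraries, and their part in the results was not tested. The 12 marrow stroma markers summed to 226 and 196 CPM in the UVB libraries, 64.9 and 124 CPM in the tumor libraries and 591 CPM in the control, and 7 of 12 were lower in UVB libraries and 9 in tumor libraries than in the control. Of these, 6 in each comparison passed the filter only through the control and so had to be lower, which leaves 1 in UVB and 3 in tumor libraries. The 1 left in UVB, and 1 of the 3 in tumor, was Cxcl12, the chemokine of marrow reticular cells. It had 0.99 and 1.01 CPM in UVB, 1.60 and 1.81 CPM in tumor and 184.5 CPM in control. With 4 to 9 reads per spleen library it passed the filter only narrowly without the control, so its calls carry nearly the same limit. Adipoq and Grem1, which passed only through the control, had 0 reads in every spleen library. Osteoblast markers, 11 listed, summed to 33.7 and 35.9 CPM in the UVB libraries, 9.22 and 25.1 CPM in the tumor libraries and 145 CPM in the control, with 2 of 5 tested lower in both spleen groups, and both of these passed the filter only through the control. Of these the bone sialoprotein gene Ibsp had 0 reads in every spleen library and 27.2 CPM in the control, and Spp1 had 0.18 to 0.67 CPM in the spleens and 34.2 CPM in the control. Bglap2, Dmp1, Mepe and Sp7 also had 0 reads in every spleen library, and of these Mepe had 0 reads in the control too.

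**Figure D5:**
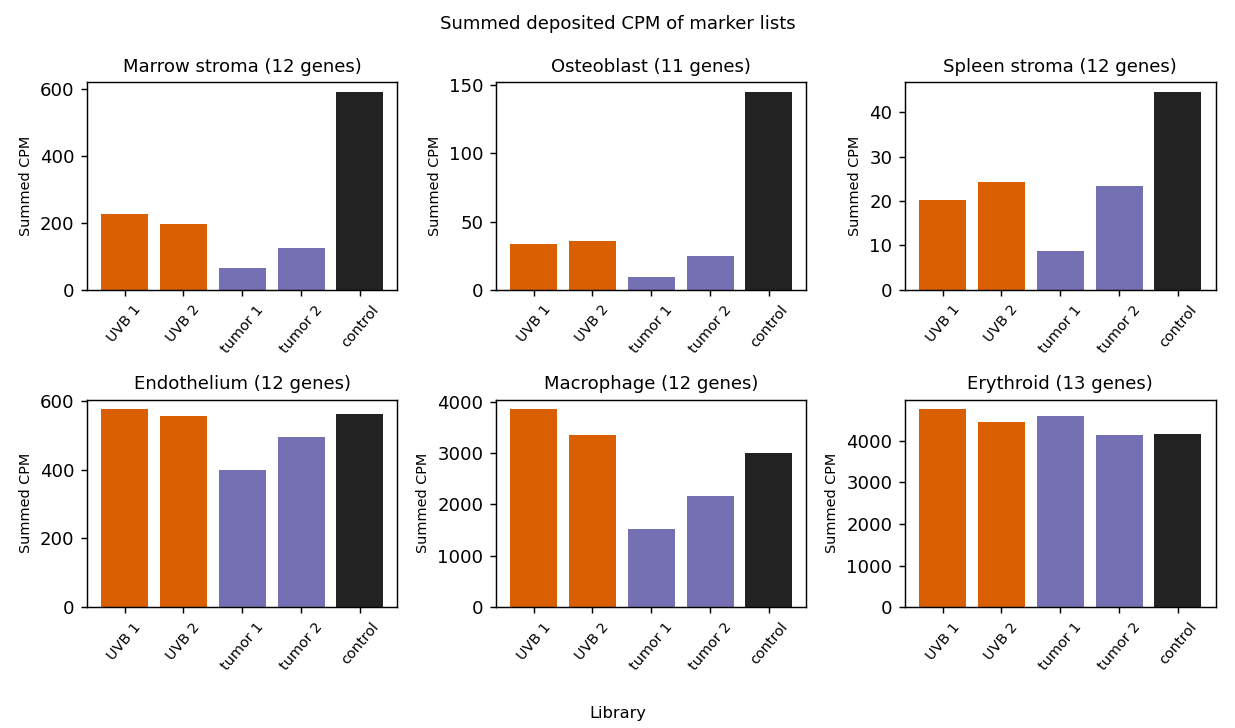
Summed CPM of the marker lists of other cell types and of the erythroid list (y axes, linear and from 0, a scale for each panel) in each library (x axes). The marrow stroma, osteoblast and spleen stroma bars are highest in the control, the macrophage bars are lowest in the tumor libraries at 1523 and 2171 CPM, and the erythroid bars lie between 4154 and 4759 CPM.

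Spleen stroma markers did not stand out in the spleens. Their 12 genes summed to 20.2 and 24.2 CPM in the UVB libraries, 8.69 and 23.3 CPM in the tumor libraries and 44.5 CPM in the control, with Nkx2-5, Tlx1, Tcf21 and Ccl19 at 0 reads in every library. Of the list 2 genes passed the filter, and neither was called. Endothelial markers summed to 577 and 558 CPM in the UVB libraries, 399 and 497 CPM in the tumor libraries and 563 CPM in the control. Their sum was thus higher in UVB than in tumor libraries, although 9 of 12 changes were below 0 in UVB and 3 above. Of these, 5 were called lower and 1 higher in UVB libraries. Against the control 4 were lower in UVB and 1 in tumor libraries, and 2 and 1 of these passed the filter only through the control. Egfl7, an endothelial secreted factor, had 3.37 and 2.18 CPM in UVB, 28.2 and 28.8 CPM in tumor and 26.3 CPM in control, and so was lowest in UVB, as Col4a1 and Col4a2 were. Eng, a coreceptor of endothelium, and Tek, the angiopoietin receptor, were also lower in UVB than in tumor libraries, and Emcn had 0 to 2 reads in each spleen library. Chondrocyte markers summed to at most 10.99 CPM, with 1 of 2 tested, Pth1r, lower in both spleen groups and tested only through the control.

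The 12 macrophage markers summed to 3848 and 3357 CPM in UVB, 1523 and 2171 CPM in tumor and 2998 CPM in control, and 4 of 12 were higher in UVB than in tumor libraries, the direction of Col14a1 (Siglec1, Cd163, Mrc1 and C1qc). Siglec1, an adhesion receptor of macrophages, had 162 and 177 CPM in UVB, 19.3 and 33.8 CPM in tumor and 368 CPM in control. B cell markers summed to 1525 and 1427 CPM in UVB, 351 and 1073 CPM in tumor and 735 CPM in control, with none called, Cr2 included. T cell markers summed to 135 and 86.9 CPM in UVB, 27.5 and 48.5 CPM in tumor and 133 CPM in control, with Cd4 higher in UVB than in tumor libraries and Lck not called. Megakaryocyte markers, Itga2b and Gp9 among them, summed to 56.9 to 79.8 CPM with none called. Neutrophil markers summed to 62.3 and 86.6 CPM in the UVB libraries, 42.2 and 115 CPM in the tumor libraries and 1052 CPM in the control, and pro-B and pre-B markers to 17.8 and 19.6 CPM in the UVB libraries, 4.61 and 28.8 CPM in the tumor libraries and 1027 CPM in the control. Of the 11 neutrophil markers 3 were lower in UVB and 7 in tumor libraries than in the control. In each comparison 2 of these passed the filter only through the control, Fcnb among them, and so had to be lower. Fcnb and Ctsg were called in both comparisons, and Prtn3 and Elane in tumor alone. Ctsg passed the filter only narrowly without the control, with 1 to 18 reads per spleen library. Of the 7 pro-B and pre-B markers 5 were lower in each, Vpreb1, Vpreb2, Rag2 and Igll1 among them, and all 5 passed the filter only through the control.

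The genes whose pattern over the 5 libraries was most like that of Col1a1 were taken, by Pearson r of the log2 levels, from 423 genes that reached 10 CPM in the control and varied by at least 3 on the log2 scale. They were Fxyd6 (r = 0.9998), Vpreb1 (0.9996), Zkscan16 (0.9995), Cebpe (0.9994), Serping1 (0.9994) and Lgr5 (0.9993). Such values rest on 1 library that is high and 4 that are low, and the 4 low points are at a few reads each. Vpreb1, a part of the surrogate light chain of pre-B cells, had 0.40 and 0.50 CPM in UVB 1 and 2, 0.18 and 0.36 CPM in tumor 1 and 2 and 59.5 CPM in the control. Cebpe, a transcription factor of granulocytes, had 0.59 and 0.84 CPM in the UVB libraries, 0.53 and 0.54 CPM in the tumor libraries and 30.2 CPM in the control.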

How the data were processed

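The deposited tables held linear counts per 1000000 reads (CPM), 1 table for UVB and 1 for tumor, each with the same control library. Per the submitters' processing notes STAR, HTSeq and mm10 were used, with versions, annotation, strand and duplicate handling not stated. The authors had added 1 read per gene, and whole reads were recovered from all values (100%, relative tolerance 1e-06). The deposited log2 fold changes, ratios of 1 spleen library to the control, were used only to check the scale.

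Genes whose mean reached 1 CPM were tested two-sided with limma 3.58.1 (R 4.3.3) on log2(CPM + 1). All 5 libraries entered 1 fit, which left 2 residual degrees of freedom, the control being assumed to vary like the spleens. Alternatives included edgeR 4.0.16 and DESeq2 1.42.0 on recovered reads. The procedure was tested on simulated data. Ratios of reads carry exact 95% intervals. Exon lengths and positions are from GENCODE M21 (37607 identifiers found).

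The members and lists were chosen with earlier results of these data known. All chains that reached 10 CPM or were called are given in full, others by range, and up to 4 genes of each of 19 other lists (213 genes matched, 9 entries unmatched, mostly alternative symbols) are named. Some genes that this rule names are not reported here.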

Additional observations from a re-analysis of the deposited data

How the results depend on the processing

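Counts of called genes and chains depended strongly on the libraries and the test. For UVB against control, 349 genes and 14 chains with limma became 101 and 8 with a pseudocount of 0.25, 67 and 4 with a filter at 5 CPM, 116 and 4 with edgeR, 541 genes without a filter and 2984 genes with the 2 groups alone. For tumor against control, 569 and 17 became 232 and 11 with a pseudocount of 0.25, 70 and 2 at 5 CPM, 192 and 5 with edgeR, and 0 and 0 with the 2 groups alone (2077 genes and 19 chains at unadjusted p under 0.05). For UVB against tumor, 2557 and 10 became 1556 and 5 without a filter. At 5 CPM only 12 chains were tested. In the other cases the cause was not tested.

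Leaving out 1 library gave 0 to 3056 genes and 0 to 19 chains for UVB against control, 0 to 5383 and 0 to 21 for tumor against control, and 0 to 7888 and 0 to 13 for UVB against tumor. The count was 0 without UVB 1 or UVB 2 in all 3 comparisons, with limma, where 1065 and 1122, 1998 and 1994, and 2432 and 2683 genes had an unadjusted p under 0.05. Without tumor 1 the gene counts were 3043, 3317 and 5694, and without tumor 2 3056, 5383 and 7888. DESeq2 called 441, 698 and 2515 genes.

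The labels do not pair same-numbered UVB and tumor libraries, and their deviations correlated at -0.111. With the replicate block limma called 0 genes and 0 chains (5502 and 12 at unadjusted p under 0.05). Crossed numbers, tried after seeing the data, gave 3049 genes and 11 chains. No paired analysis was possible against the control because it has 1 library.

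Chains that reached 5 CPM numbered 24, against 38 at 1 CPM. Of 836 alternative values of single chains, 169 lost and 27 gained a call, and 11 changed sign, all without 1 library and all of differences not called with all libraries. Their ranges without 1 library were -0.094 to 0.15 for Col14a1 in UVB against control and -0.25 to 0.46 for Col5a1 in tumor against control. For UVB against tumor they were -0.72 to 0.10 for Col5a3, -0.20 to 0.0068 for Col11a1 and for Col12a1, -0.38 to 0.0068 for Col6a3, -0.12 to 0.14 for Col5a2, -0.014 to 0.023 for Col6a2 and for Col8a1, and -0.18 to 0.56 for Col3a1. At 0.168 to 0.198 CPM per read, differences between chains of a few reads were not detectable.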
